A study of Mus musculus with 12 samples.

Results

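The genes described here encode the proteins of the mitochondrial ribosome that carry a Mrpl symbol (large subunit) or a Mrps symbol (small subunit). They were chosen by symbol alone, with no measured value, and number 77 of the 18255 genes listed over the 12 libraries, of which 17367 have a symbol. The symbols put 48 genes in the large subunit and 29 in the small one. RNA was sequenced from 3T3-L1 cells, a mouse preadipocyte cell line that turns into fat cells in culture. There are 4 groups of 3 libraries. The first is LIGHT-overexpressing cells after differentiation into beige adipocytes, LIGHT being the cytokine encoded by Tnfsf14, and the second is control (NC) cells after the same differentiation. The third is undifferentiated LIGHT-overexpressing cells and the last is undifferentiated control cells, both in serum medium. Differentiation was induced for 48 h with dexamethasone (2 µg/ml), IBMX (0.5 mM), rosiglitazone (1 µM), triiodothyronine (1 nM), indomethacin and insulin (5 µg/ml), followed by medium with rosiglitazone, triiodothyronine and insulin. All 4 groups are 3T3-L1 cells. The sources used here do not give how LIGHT was overexpressed, whether a line is 1 clone or the day of harvest. They also do not tie the 3 libraries of each group to separate cultures, so the p-values measure only the spread between these libraries.

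The mitochondrial ribosome translates the few messenger RNAs of mitochondrial DNA, which encode core subunits of the respiratory chain and of ATP synthase. Its RNA is made in the mitochondrion, while all of its proteins are encoded in the nucleus, made by cytosolic ribosomes and imported. The small subunit binds the messenger RNA and decodes it, and the large subunit joins the amino acids and passes the new chain to the inner membrane. Beige and brown fat cells are known for many mitochondria, whose uncoupled respiration makes heat. Some symbols mislead: Mrps30 and Mrps18a encode proteins that sit in the large subunit, and Mrps36 encodes a part of the oxoglutarate dehydrogenase complex.

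Promoter sequence was available for 68 of the 77 genes, as RefSeq windows of build GRCm38.p6 that run from 250 bases before to 50 bases after a gene's start, 5′ to 3′ on the gene's strand. The 4 windows shown are those of the gene with the largest mean rise over both lines (Mrpl12, chr11:120484387-120484686, plus strand), of the gene with the smallest mean change (Mrpl52, chr14:54426659-54426958, plus strand), and of the 2 genes that rose most on average among those that hold both the NRF1 and the ETS letters (Mrpl17, chr7:105811038-105811337, minus strand, and Mrps18b, chr17:35916391-35916690, minus strand). Capitals mark matches, on either strand, to the letters of the NRF1 motif (GCATGCGC), the ETS motif bound by GABPA (CCGGAAG), the ERR motif (AAGGTCA) and the SP motif (GGGCGG), and neighbouring matches can overlap, as CCGCCC and CCGGAAG do in Mrpl17.
Mrpl12: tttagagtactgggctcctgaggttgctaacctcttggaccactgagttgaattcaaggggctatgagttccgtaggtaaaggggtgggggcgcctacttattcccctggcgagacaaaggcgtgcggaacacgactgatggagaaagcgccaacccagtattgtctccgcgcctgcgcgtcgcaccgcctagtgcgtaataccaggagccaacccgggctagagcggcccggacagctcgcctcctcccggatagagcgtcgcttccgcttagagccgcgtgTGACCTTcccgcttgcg
Mrpl17: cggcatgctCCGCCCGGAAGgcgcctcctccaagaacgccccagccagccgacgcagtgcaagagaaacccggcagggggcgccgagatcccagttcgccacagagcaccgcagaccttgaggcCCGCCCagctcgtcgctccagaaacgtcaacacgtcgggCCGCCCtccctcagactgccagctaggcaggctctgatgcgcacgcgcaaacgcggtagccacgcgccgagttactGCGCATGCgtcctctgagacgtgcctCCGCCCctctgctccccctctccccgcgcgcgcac
Mrps18b: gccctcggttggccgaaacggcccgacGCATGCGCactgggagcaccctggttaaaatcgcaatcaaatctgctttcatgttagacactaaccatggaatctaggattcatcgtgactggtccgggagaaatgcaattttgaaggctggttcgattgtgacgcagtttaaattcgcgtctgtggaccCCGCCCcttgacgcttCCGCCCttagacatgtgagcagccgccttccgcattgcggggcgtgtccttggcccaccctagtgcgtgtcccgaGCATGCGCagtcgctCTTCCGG
Mrpl52: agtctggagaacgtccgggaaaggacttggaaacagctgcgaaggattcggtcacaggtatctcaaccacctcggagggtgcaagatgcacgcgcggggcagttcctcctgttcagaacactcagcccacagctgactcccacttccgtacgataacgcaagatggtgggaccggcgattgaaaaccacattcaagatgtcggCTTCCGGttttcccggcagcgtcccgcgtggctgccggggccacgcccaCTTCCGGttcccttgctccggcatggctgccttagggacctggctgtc

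Mrpl12 held only an ERR match, at position 284 of the window, and Mrpl52 held an ETS match at positions 204 and 253. Mrpl17 held the NRF1 letters at position 240, and Mrps18b held them at positions 28 and 279. For the shares below each gene counted with its first listed window, and genes of a left-out chromosome did not count. Over the 68 windows the NRF1 letters were in 8 (11.8%), against 2.8% of all 27025 windows used and 5.62% of the 9960 of these that belong to tested genes. The ETS letters were in 24 (35.3%), against 9.12% of all windows and 18.7% of those of tested genes. The letters AAGATGGC of the YY1 motif were in 12 (17.6%), against 2.88% and 4.91%. The ERR letters were in 4 (5.88%), against 4.66% and 2.88%, and the SP letters in 34 (50%), against 35.9% and 64.9%. The E-box CACGTG was in 5 (7.35%), against 7.24% and 10.2%, and TATAAA in 4 (5.88%), against 14.2% and 7.05%. Median log2 fold changes on differentiation of members with and without the letters, in the LIGHT line, were 0.56 and 0.55 for NRF1, 0.57 and 0.50 for ETS, 0.53 and 0.56 for YY1, 0.95 and 0.55 for ERR, 0.50 and 0.60 for SP, 0.43 and 0.57 for the E-box and 0.59 and 0.56 for TATAAA. In the control line they were 0.34 and 0.55 for NRF1, 0.61 and 0.52 for ETS, 0.42 and 0.56 for YY1, 0.65 and 0.54 for ERR, 0.48 and 0.57 for SP, 0.46 and 0.55 for the E-box and 0.43 and 0.55 for TATAAA. The direction thus differed between motifs, and none of these differences was tested. A match to letters is a description of the sequence and no evidence of binding.

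Each library held between 16334079 and 19686675 expected counts, all 77 genes were listed in every library, the lowest value of any of them was 98 counts, and all 77 passed the filter on low counts. The transgene check set a pair of libraries apart. Tnfsf14 had 0, 148 and 122 counts in LIGHT-Diff 1, 2 and 3, and 113, 0 and 0 counts in NC-Diff 1, 2 and 3. It had 38, 53 and 58 counts in the undifferentiated LIGHT libraries and 0, 1 and 0 counts in the undifferentiated control libraries. Tnfsf14 thus went against the label in the libraries labelled LIGHT-Diff 1 and NC-Diff 1, and the comparisons of the 77 genes are given over all 12 libraries and over the 10 without them. Levels and changes are over all 12 where no other number is stated. The summed CPM of 6 adipocyte markers (Adipoq, Fabp4, Plin1, Cidec, Lpl and Pparg) was 15343 to 21029 in the 6 differentiated libraries and 180 to 237 in the 6 undifferentiated ones. Within the differentiated libraries it was 20919, 15343 and 15726 in LIGHT-Diff 1 to 3, and 15577, 19904 and 21029 in NC-Diff 1 to 3. Of 5 leukocyte markers the sum was 1.11 to 2.68 CPM in differentiated libraries and 1.2 to 3.87 CPM in undifferentiated ones, with Adgre1 and Emr1 at 0. The 3 endothelial markers summed to 0.918 CPM or less. Of 3 epithelial markers Epcam was at 0, while Krt8 had 5.55, 1.79 and 1.58 CPM in LIGHT-Diff 1 to 3, 0.87, 7.81 and 4.91 CPM in NC-Diff 1 to 3, and 0.281 CPM or less in undifferentiated libraries. Of 3 muscle markers Myod1 was at 0 and Acta1 at 1.06 to 4.32 CPM. The 6 preadipocyte and fibroblast markers (Pdgfra, Pdgfrb, Dlk1, Thy1, Col1a1 and Col1a2) summed to 10250 to 16944 CPM in differentiated libraries and 9354 to 17908 CPM in undifferentiated ones. Most of this sum was Col1a1 and Col1a2. Thy1 was lower in differentiated libraries (106 to 134 CPM) than in undifferentiated ones (228 to 276 CPM). Dlk1 was also lower, at 644 to 779 CPM against 908 to 1483 CPM. The other markers overlapped between the stages. In bulk RNA, fewer cells of a type and less RNA per cell cannot be told apart.

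Per length, summed over the 77 genes, the deposited FPKM (fragments scaled by gene length and by library total) was 6728, 6376 and 6133 in the differentiated LIGHT libraries and 6114, 6518 and 6486 in the differentiated control libraries. It was 4320, 4339 and 4095 in the undifferentiated LIGHT libraries and 4536, 4622 and 4893 in the undifferentiated control libraries. Every differentiated library was above every undifferentiated one, and the differentiated lines overlapped. They did not overlap without the doubted pair, with 6133 to 6376 in LIGHT and 6486 to 6518 in control libraries. Undifferentiated LIGHT libraries were all below the undifferentiated control libraries. As a share of all FPKM the genes held 1.01% ± 0.00901 and 1% ± 0.0155 in differentiated LIGHT and control cells, and 0.691% ± 0.00419 and 0.762% ± 0.0166 in undifferentiated LIGHT and control cells (SD, n = 3 each). Without the doubted pair the share was 1.01% (1% to 1.02%) in differentiated LIGHT cells and 0.996% (0.99% to 1%) in differentiated control cells (n = 2 each). After differentiation the share, unlike the sum without the pair, was thus not lower in LIGHT than in control cells. Before differentiation it was lower, with 0.688% to 0.695% in LIGHT and 0.748% to 0.78% in control libraries. The large subunit's sum was 1.41 ± 0.0687 and 1.43 ± 0.0674 times that of the small subunit in differentiated LIGHT and control cells, and 1.52 ± 0.0306 and 1.61 ± 0.00623 times in undifferentiated LIGHT and control cells (SD, n = 3 each). Without the doubted libraries these ratios were 1.37 ± 0.00604 and 1.46 ± 0.0256 in differentiated LIGHT and control cells (SD, n = 2 each). The ratio, as checked after seeing the values, turned in part on Mrps6, a small-subunit gene at 663 and 611 FPKM in differentiated LIGHT and control cells, and at 331 and 325 FPKM in undifferentiated LIGHT and control cells. With Mrps6 left out the ratio was 1.88 ± 0.00465 and 1.86 ± 0.0356 in differentiated LIGHT and control cells, and 1.89 ± 0.0415 and 1.96 ± 0.00651 in undifferentiated LIGHT and control cells (SD, n = 3 each). The stages then overlapped in the LIGHT line (1.87 to 1.88 after and 1.85 to 1.93 before differentiation). They still did not overlap in the control line (1.82 to 1.89 after and 1.95 to 1.97 before differentiation). All these ratios go by symbol, so Mrps30, Mrps18a and Mrps36 count in the small subunit. Mrps18a had 175 and 174 FPKM in differentiated LIGHT and control cells, and 89 and 107 FPKM in undifferentiated ones. The ratio with these genes placed by structure was not worked out. The gap in the control line is thus given for the grouping by symbol only.

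**Figure D1:**
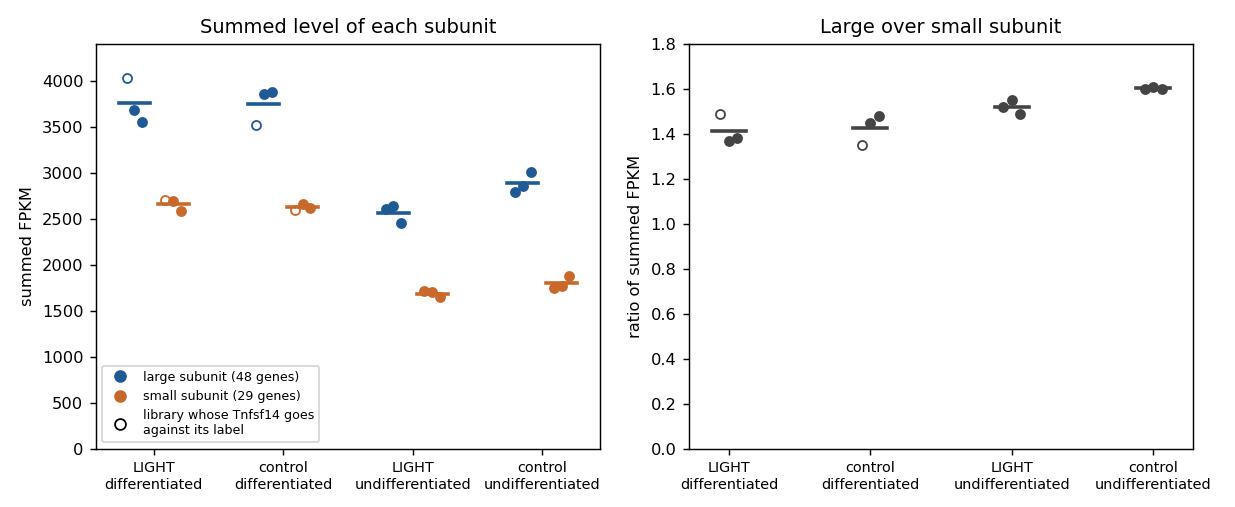
Left, summed FPKM of the large-subunit (blue) and small-subunit (orange) genes in each library, and right, the ratio of the sums, by group; points are libraries, short lines are means of 3, and open points are the 2 libraries whose Tnfsf14 goes against the label. The differentiated libraries lie above the undifferentiated ones for both subunits. The ratio by symbol, which turns in part on Mrps6, is 1.35 to 1.49 in differentiated libraries and 1.49 to 1.61 in undifferentiated ones.

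Although a ribosome holds most of these proteins in equal number, the transcripts were not equally abundant. The highest gene was 63.2 and 58.8 times the lowest in differentiated LIGHT and control cells, and 43 and 38.8 times in undifferentiated LIGHT and control cells, in mean FPKM. The 10 most abundant genes held 36.6% and 35.4% of the genes' FPKM in the differentiated groups and 33.1% and 32.8% in the undifferentiated ones. Without the doubted pair the differentiated values were 67.8 and 51.8 times, and 37.7% and 34.7%, in LIGHT and control cells. In the small subunit Mrps6 (mean of 482 FPKM over the 12 libraries), Mrps21 (144) and Mrps18a (136) were highest, and Mrps31 (26.7), Mrps27 (25.8) and Mrps25 (10.5) lowest. In the large subunit Mrpl12 (235), Mrpl52 (182) and Mrpl33 (147) were highest, and Mrpl1 (11.6), Mrpl55 (11.4) and Mrpl19 (9.82) lowest. Mrps6 shares exon sequence on the same strand with Slc5a3, a myo-inositol transporter gene, and reads of the shared part may be split between both genes. A further 24 members overlap an exon of another gene in the mouse annotation GENCODE vM21. Counts were whole, within 1e-09, in every library for 56 members, and they were not whole in any of the 12 libraries for 6 (Mrpl19, Mrpl24, Mrpl27, Mrpl38, Mrps25 and Mrps33), as can happen where reads are split between genes. Mrps6 was among the 56 members with whole counts, so its counts showed no such sign. Mrpl38 and Mrps33 overlap no exon of another gene in that annotation.

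Most of the 77 genes rose with differentiation in both lines, and none fell past the test. In the LIGHT line 62 of 77 rose, with a median log2 fold change of 0.57, and 0 fell, against 29.5% higher and 29.1% lower of the 12993 genes tested and a median of 0.00 over all of them (edgeR quasi-likelihood test, Benjamini-Hochberg adjusted p under 0.05). In the control line 59 of 77 rose, with a median of 0.55, and 0 fell, against 32.2% higher and 31.7% lower of all genes tested. At an unadjusted p under 0.05 the number of falls was also 0 in both lines. Over all 12993 genes tested it was 4087 in the LIGHT line and 4323 in the control line. Without the doubted pair 61 rose and 0 fell in the LIGHT line with a median of 0.52, against 32.3% higher and 31.9% lower of the 13150 genes tested, and 69 rose and 0 fell in the control line with a median of 0.63, against 35.8% and 34.9%. DESeq2 called 0 falls among the 77 genes in either line, against 3763 and 4080 over all genes in the LIGHT and control line.

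The medians of the subunits lay close together, while a larger share of the small subunit passed the test; the difference in share was not tested. In the LIGHT line 37 of 48 large-subunit genes (77.1%) and 25 of 29 small-subunit genes (86.2%) rose, each with a median log2 fold change of 0.57. In the control line 33 of 48 (68.8%) and 26 of 29 (89.7%) rose, with medians of 0.52 and 0.57. In the 10-library fit 34 of 48 (70.8%) and 27 of 29 (93.1%) rose in the LIGHT line, and 41 of 48 (85.4%) and 28 of 29 (96.6%) in the control line. In the 10-library fit the medians of the large and small subunit were 0.46 and 0.54 in the LIGHT line and 0.64 and 0.62 in the control line. The range was wider in the large subunit, -0.05 to 1.71 against 0.01 to 1.03 in the small one, in the LIGHT line over 12 libraries. The same 57 genes rose in both lines over 12 libraries, 5 passed in the LIGHT line alone (Mrpl3, Mrpl19, Mrpl22, Mrpl33 and Mrps18b), 2 in the control line alone (Mrps9 and Mrps33) and 13 in neither. In the 10-library fit 61 rose in both lines, 8 passed in the control line alone and 8 in neither. How many of all genes tested rose in both lines, or in 1 line alone, was not counted. No agreement between lines particular to these genes can thus be read from these counts.

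**Figure D2:**
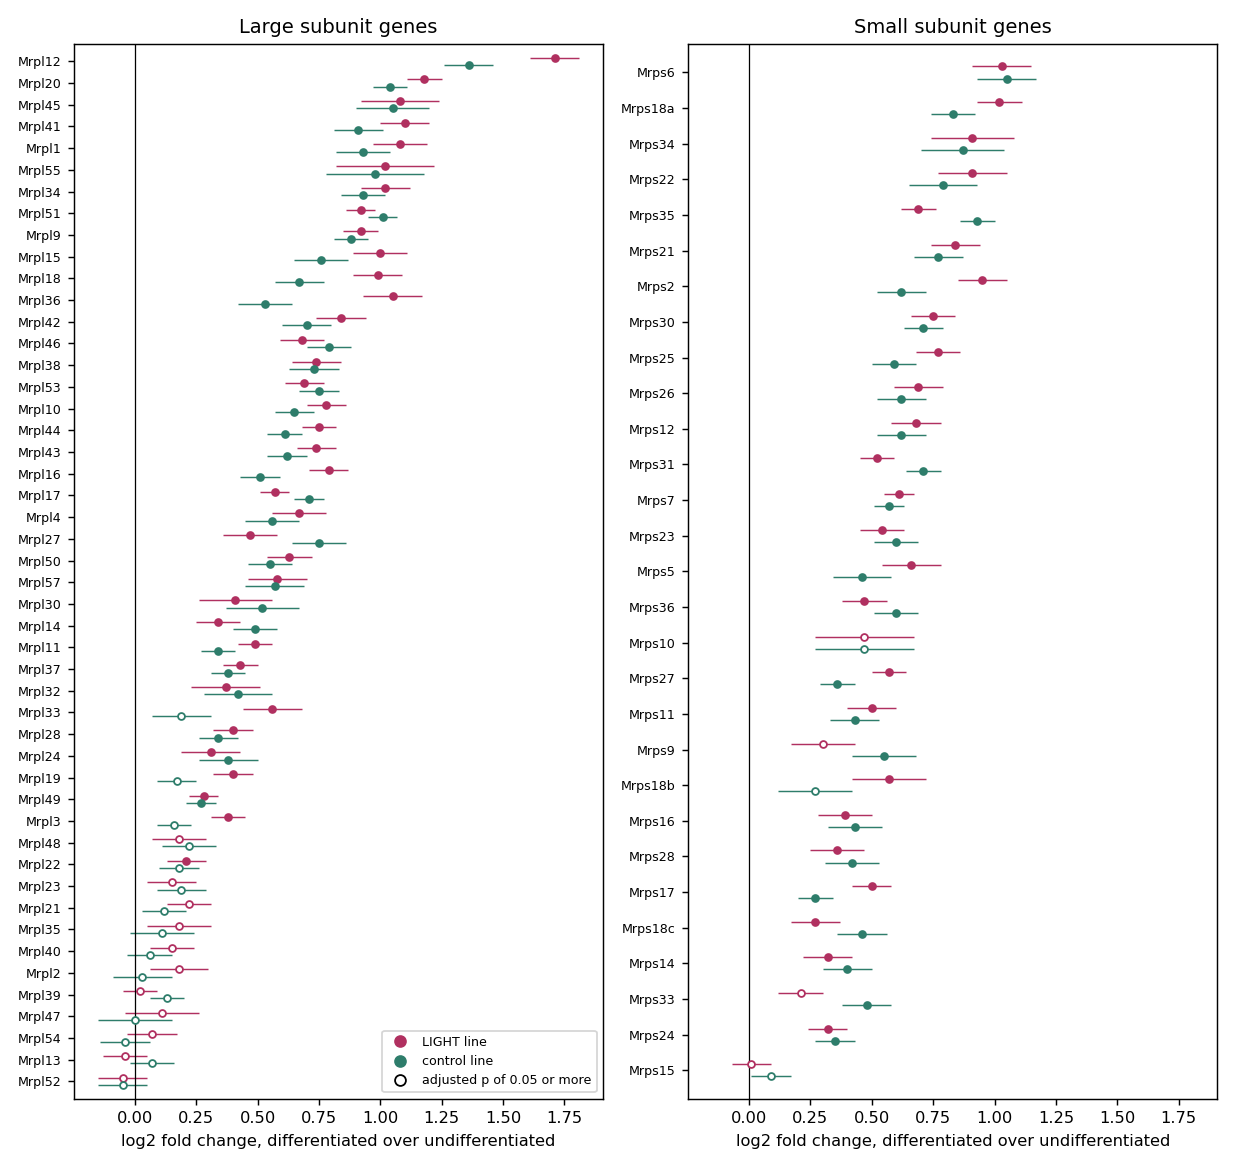
Log2 fold change of each gene, differentiated over undifferentiated, in the LIGHT line (red, upper point) and the control line (green, lower point) over 12 libraries, with bars of 1 standard error and open points for an adjusted p of 0.05 or more; genes are sorted by the mean of the lines within each subunit. The values run from -0.05 for Mrpl52 to 1.71 for Mrpl12.

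Mrpl12 rose most in both lines. It encodes the stalk protein that draws translation factors to the large subunit, and it is also known to bind the mitochondrial RNA polymerase. It had 317, 263 and 259 CPM in the differentiated LIGHT libraries and 257, 302 and 313 CPM in the differentiated control libraries (counts relative to the library total as scaled by TMM). It had 92.5, 82.4 and 81.5 CPM in the undifferentiated LIGHT libraries and 111, 112 and 116 CPM in the undifferentiated control libraries. The stages did not overlap in either line. The log2 fold change was 1.71 ± 0.10 (SE) in the LIGHT line (adjusted p = 1.66e-08) and 1.36 ± 0.10 in the control line (adjusted p = 8.28e-08), and over the 10 libraries it was 1.62 and 1.47. The other stalk genes moved less. Mrpl10 rose by a log2 fold change of 0.78 and 0.65 in the LIGHT and control line, and Mrpl11 by 0.49 and 0.34.

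Mrpl20, whose counterpart in Escherichia coli acts early in assembly of the large subunit, had 94.4, 92.1 and 92.1 CPM in differentiated LIGHT libraries and 44.8, 36.5 and 41.5 CPM in undifferentiated LIGHT libraries. It had 93.7, 95.5 and 96.4 CPM in differentiated control libraries and 45.1, 44.7 and 49.0 CPM in undifferentiated control libraries. The replicates lay close together and the stages far apart, with log2 fold changes of 1.18 ± 0.07 and 1.04 ± 0.07 in the LIGHT and control line (SE). Mrpl45, a protein at the exit of the nascent chain that contacts the inner membrane, had 126, 89.6 and 87.8 CPM in differentiated LIGHT libraries and 47.8, 51.7 and 44.3 CPM in undifferentiated LIGHT libraries. It had 85.6, 127 and 118 CPM in differentiated control libraries and 53.0, 51.6 and 55.1 CPM in undifferentiated control libraries. Its differentiated values fell in a high group, LIGHT-Diff 1 with NC-Diff 2 and 3, and a low group, LIGHT-Diff 2 and 3 with NC-Diff 1. It rose by 1.08 ± 0.16 and 1.05 ± 0.15 in the LIGHT and control line, and over the 10 libraries by 0.89 ± 0.07 and 1.23 ± 0.07. Mrpl41, a protein specific to the mitochondrial large subunit, rose by 1.10 and 0.91, and Mrpl1, whose bacterial counterpart forms the mobile stalk beside the exit of transfer RNA, by 1.08 and 0.93. Mrpl51, also specific to mitochondria, rose by 0.92 and 1.01, and Mrpl44, which carries a ribonuclease III fold, by 0.75 and 0.61. Mrpl34 rose by 1.02 and 0.93. Mrpl55 was near the bottom of the level order and rose by 1.02 and 0.98, with standard errors of 0.20 in both lines.

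Of the 3 genes listed for the core of the large subunit, Mrpl4, whose protein lines the exit tunnel, rose by 0.67 and 0.56 in the LIGHT and control line, and Mrpl3 had a log2 fold change of 0.38 (adjusted p = 0.000461) in the LIGHT line and 0.16 (adjusted p = 0.0567) in the control line. Mrpl2, close to the site of peptide bond formation, had values of 0.18 and 0.03 that did not pass (adjusted p = 0.228 and 0.842). Mrpl33, one of the most abundant, had values of 0.56 (adjusted p = 0.00128) and 0.19 (adjusted p = 0.185). Mrpl19, the least abundant by FPKM, had 0.40 (adjusted p = 0.00082) and 0.17 (adjusted p = 0.0752). Without the doubted pair Mrpl2, Mrpl3, Mrpl19 and Mrpl33 passed in the control line, with 0.16, 0.20, 0.23 and 0.25, and all but Mrpl2 (0.03, adjusted p = 0.698) also passed in the LIGHT line.

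In the small subunit Mrps6, at the platform of the subunit, was the most abundant gene and, over 12 libraries, had the largest rise of the subunit. It had 369, 467 and 448 CPM in differentiated LIGHT libraries and 488, 361 and 377 CPM in differentiated control libraries. It had 215, 211 and 201 CPM in undifferentiated LIGHT libraries and 190, 193 and 210 CPM in undifferentiated control libraries. The stages did not overlap, and in the differentiated cells LIGHT-Diff 1 lay with NC-Diff 2 and 3. The log2 fold change was 1.03 ± 0.12 in the LIGHT line and 1.05 ± 0.12 in the control line (SE), and over the 10 libraries it was 1.14 and 0.92, where Mrps34 had 0.72 in the LIGHT line and a larger rise of 1.05 in the control line. Slc5a3, which shares exon sequence with Mrps6, had 1.69 ± 0.12 and 1.49 ± 0.12 over 12 libraries. How far the shared exon sets the Mrps6 values was not tested.

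Of the 3 relatives of the bacterial S18 protein, Mrps18a rose by 1.02 and 0.83 in the LIGHT and control line, and Mrps18c by 0.27 and 0.46. In the LIGHT line Mrps18c did not pass without LIGHT-Diff 1 or 2 (0.25 and 0.26) or without undifferentiated LIGHT library 1 or 3 (0.29 and 0.16). Mrps18b rose by 0.57 in the LIGHT line and had 0.27 in the control line (adjusted p = 0.13), and over the 10 libraries it rose by 0.38 and 0.44. At the decoding centre Mrps12 rose by 0.68 and 0.62. Mrps7, near the exit of messenger RNA, rose by 0.61 and 0.57, with all 6 differentiated libraries between 99.9 and 111 CPM and all 6 undifferentiated ones between 67.3 and 75.3 CPM. Mrps5, near the messenger entry, rose by 0.66 and 0.46. Mrps16 and Mrps22, which are mutated in human disorders of mitochondrial translation, rose by 0.39 and 0.43 and by 0.91 and 0.79. Mrps9 had 0.30 (adjusted p = 0.0578) in the LIGHT line, where it passed without LIGHT-Diff 2 or 3 (0.37 each) or NC-Diff 1 (0.31), and rose by 0.55 in the control line, and over the 10 libraries the values were 0.17 and 0.67. Mrps34, specific to mitochondria, rose by 0.91 and 0.87, and Mrps35 by 0.69 and 0.93. Among the least abundant, Mrps25 rose by 0.77 and 0.59, Mrps27 by 0.57 and 0.36 and Mrps31 by 0.52 and 0.71. The abundant Mrps21 rose by 0.84 and 0.77. Mrps30, in the large subunit despite its symbol, rose by 0.75 and 0.71, and Mrps36, of the oxoglutarate dehydrogenase complex, by 0.47 and 0.60.

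The genes that passed in neither line over 12 libraries were 11 of the large subunit (Mrpl2, Mrpl13, Mrpl21, Mrpl23, Mrpl35, Mrpl39, Mrpl40, Mrpl47, Mrpl48, Mrpl52 and Mrpl54) and 2 of the small subunit (Mrps10 and Mrps15). Mrpl52, a protein specific to mitochondria and the second most abundant of the large subunit by FPKM, had 48.3, 44.5 and 38.7 CPM in differentiated LIGHT libraries and 46.8, 47.6 and 41.5 CPM in undifferentiated LIGHT libraries. It had 43.5, 46.9 and 53.1 CPM in differentiated control libraries and 47.7, 47.1 and 53.5 CPM in undifferentiated control libraries. The stages overlapped in both lines, and the log2 fold change was -0.05 ± 0.10 in each (SE). Mrpl54 had 0.07 ± 0.10 and -0.04 ± 0.10 in the LIGHT and control line, and Mrps15 had 0.01 ± 0.08 and 0.09 ± 0.08. Mrps10 differed from these, since its value of 0.47 in both lines came with a standard error of 0.20 in both. It had 50.7, 31.9 and 32.7 CPM in LIGHT-Diff 1 to 3 and 32.0, 52.7 and 54.8 CPM in NC-Diff 1 to 3, so that 1 library of each differentiated group lay with the other line. Without the doubted pair it rose by 0.23 ± 0.08 and 0.70 ± 0.07 in the LIGHT and control line. Mrpl13, Mrpl22, Mrpl40, Mrpl47, Mrpl48, Mrpl52, Mrpl54 and Mrps15 passed in neither line over the 10 libraries.

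Counts for the other genes of the pathway stand beside 29.5% higher and 29.1% lower of all genes tested in the LIGHT line, and 32.2% and 31.7% in the control line. Of 7 mitoribosomal or inner-membrane translation genes with other symbols, 4 rose and 0 fell in each line, among them Dap3 and Ptcd3, small-subunit proteins, with log2 fold changes of 0.59 and 0.72 in the LIGHT line and 0.71 and 0.43 in the control line. Of 30 genes for ribosome assembly and ribosomal RNA modification, 15 rose and 0 fell in the LIGHT line and 16 rose and 4 fell in the control line. Those with the smallest p were Ndufab1, an acyl carrier protein also of complex I (1.20 and 1.24 in the LIGHT and control line), Rpusd3, a pseudouridine synthase (2.16 and 1.69), Grsf1, an RNA-binding protein of mitochondrial RNA granules (0.92 and 1.08), and Mtg1, a GTPase (0.69 and 0.84). Of 24 translation factors and related genes, 18 rose and 1 fell in the LIGHT line and 16 rose and 2 fell in the control line. The elongation factors Tufm, Gfm1 and the recycling factor Gfm2 rose by 1.04, 0.94 and 1.12 in the LIGHT line and by 1.00, 0.68 and 1.07 in the control line, while Pnpt1, which degrades RNA, had values of -0.94 and -0.52 and fell in both. Of 18 genes for mitochondrial DNA maintenance and transcription, 11 rose and 1 fell in each line. Elac2, which cuts transfer RNA precursors, rose by 0.75 and 0.34, and Tfb2m, a transcription factor of mitochondrial DNA, by 0.85 and 0.81. Tfam had 0.22 (adjusted p = 0.131) and 0.20 (adjusted p = 0.154) over 12 libraries. Without the doubted pair it had 0.11 (adjusted p = 0.212) in the LIGHT line and rose by 0.35 (adjusted p = 0.000302) in the control line. Without the pair the shares of all genes tested were 32.3% higher and 31.9% lower in the LIGHT line, and 35.8% and 34.9% in the control line. Over these 10 libraries 18 assembly genes rose and 0 fell in the LIGHT line and 19 rose and 4 fell in the control line, out of 30. Of the 24 translation factors 18 rose and 1 fell in the LIGHT line and 18 rose and 2 fell in the control line. Of the 18 genes for mitochondrial DNA 12 rose and 1 fell in the LIGHT line and 14 rose and 1 fell in the control line, and of the 7 genes with other symbols 4 and 6 rose and 0 fell.

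Among 10 regulators of nuclear mitochondrial genes, 5 rose and 2 fell in the LIGHT line and 4 rose and 2 fell in the control line. The coactivators Ppargc1a and Ppargc1b rose by log2 fold changes of 3.09 and 3.46 in the LIGHT line and 2.09 and 3.15 in the control line. The receptor Esrra rose by 1.26 and 1.35. Pprc1, a relative of the coactivators, had -0.76 and -1.26 and fell in both lines. Nrf1 and Gabpa, whose motifs were counted in the promoters, had 0.02 and -0.12 in the LIGHT line (adjusted p = 0.864 and 0.188) and 0.00 and -0.14 in the control line (adjusted p = 0.986 and 0.138). Myc rose by 0.51 in the LIGHT line and had 0.01 in the control line (adjusted p = 0.938).

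Beside other ribosome and mitochondrial genes, the 77 genes took a middle place. Of 79 tested nuclear genes of the respiratory chain, 76 rose and 0 fell in the LIGHT line, with a median log2 fold change of 0.99, and 78 rose and 1 fell in the control line, with a median of 1.10. Of 81 tested cytosolic ribosomal proteins, 3 rose and 30 fell in the LIGHT line, with a median of -0.25, and 7 rose and 13 fell in the control line, with a median of -0.07. The medians of the 77 genes, 0.57 and 0.55, lay between those of the other lists. In the 10-library fit 3 cytosolic genes rose and 66 fell in the LIGHT line, and 26 rose and 13 fell in the control line, so that the balance in the control line turned. The order of the medians was the same, with medians of the cytosolic list of -0.39 and 0.06, of the 77 genes of 0.52 and 0.63, and of the respiratory chain of 0.86 and 1.22 in the LIGHT and control line. No difference between lists was tested.

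**Figure D3:**
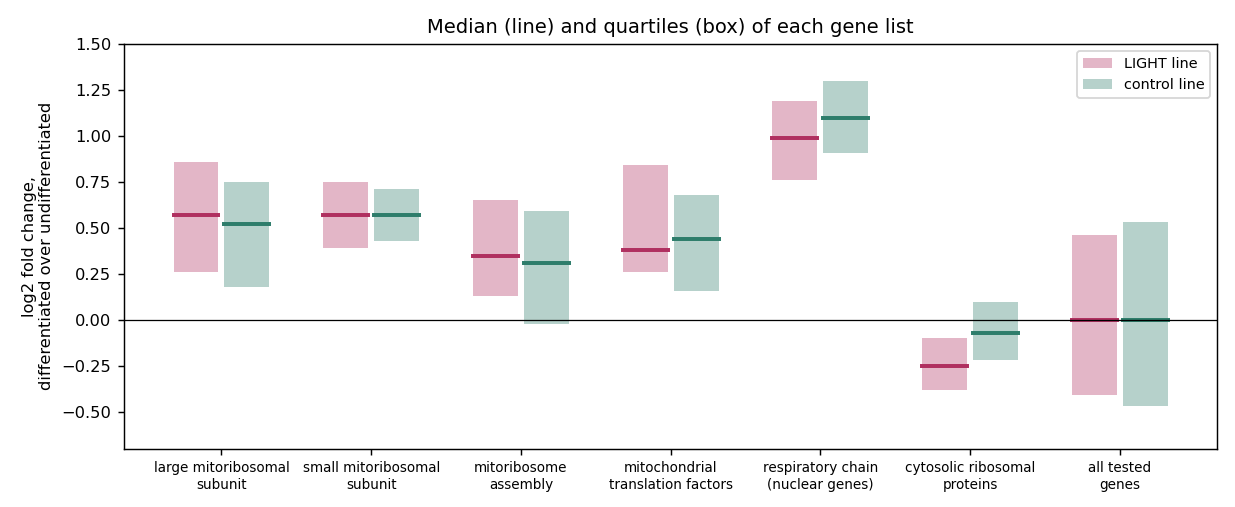
Median (line) and quartiles (box) of the log2 fold change, differentiated over undifferentiated, for the large and small mitoribosomal subunits, 4 further gene lists and all 12993 tested genes, in the LIGHT line (red) and the control line (green) over 12 libraries. The mitoribosomal medians (0.57 and 0.57 in the LIGHT line, 0.52 and 0.57 in the control line) lie above those of all genes and below those of the respiratory chain (0.99 and 1.10).

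Many of these genes start beside another gene that runs the other way, and over these neighbours rises and falls were about balanced. In the RefSeq windows 22 members had a start window that overlaps that of a gene on the opposite strand, and 21 of these neighbours were tested. In the LIGHT line 8 neighbours rose and 5 fell, with a median log2 fold change of 0.02, and in the control line 7 rose and 7 fell, with a median of 0.03. Of all genes tested 29.5% were higher and 29.1% lower in the LIGHT line, and 32.2% and 31.7% in the control line. With the pair left out 8 rose and 8 fell in the LIGHT line and 7 rose and 7 fell in the control line, with medians of -0.04 and 0.07. The shares of all genes were then 32.3% higher and 31.9% lower in the LIGHT line, and 35.8% and 34.9% in the control line. Mrpl46 and Mrps11 face each other, so this pair is counted from both sides; Mrpl46 rose by 0.68 and 0.79 and Mrps11 by 0.50 and 0.43 in the LIGHT and control line. Mrpl57 rose by 0.58 and 0.57, while its neighbour Ska3, a kinetochore gene of dividing cells, fell with values of -1.42 and -1.45. Mrpl30 rose by 0.41 and 0.52, and by 0.20 and 0.66 over the 10 libraries, while Mitd1, a gene of the last step of cell division, fell with values of -1.11 and -1.07. Mrpl27 rose by 0.47 and 0.75, while Eme1, a subunit of a DNA repair nuclease, fell with values of -0.70 and -1.68. In the other direction Mrpl47 had 0.11 and 0.00 (adjusted p = 0.529 and 0.991), while Ndufb5, a subunit of respiratory complex I, rose by 0.97 and 1.10. Other neighbours rose in both lines together with their member. These were Cyb5rl beside Mrpl37 (1.04 and 0.98), Ptcd2 beside Mrps27 (0.73 and 0.44) and 2610507I01Rik beside Mrpl55 (0.78 and 0.63).

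**Figure D4:**
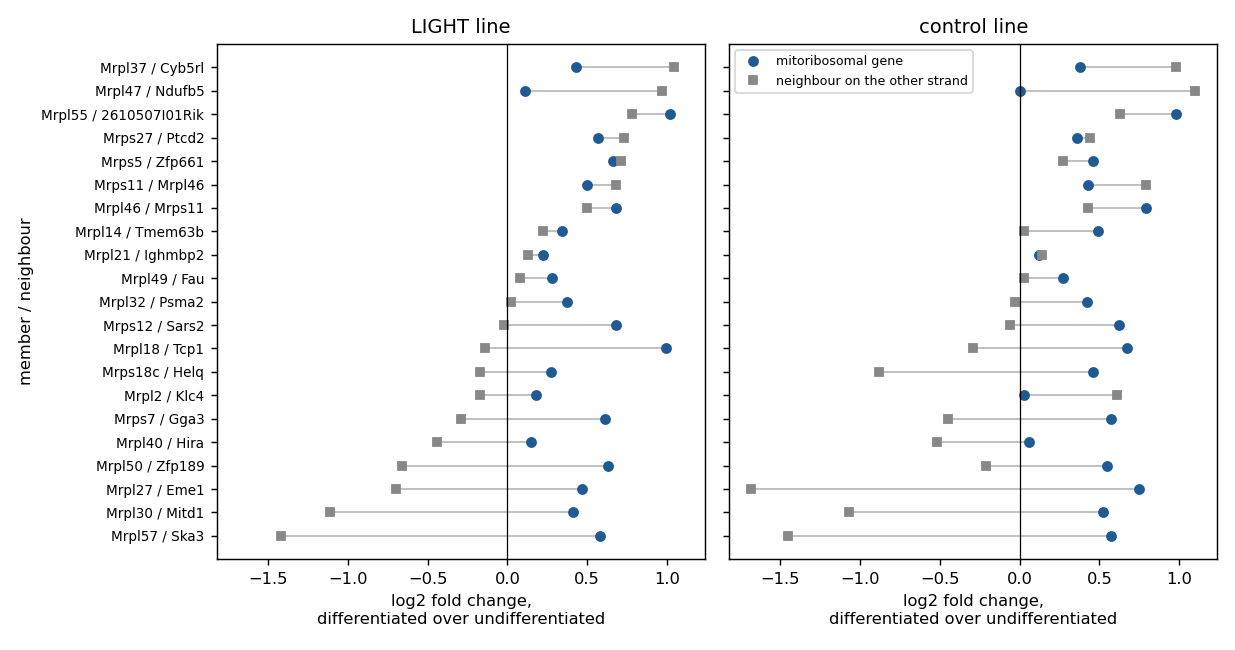
Log2 fold change, differentiated over undifferentiated, of 21 mitoribosomal genes (blue circles) and of the tested gene that starts beside each on the opposite strand (grey squares), in the LIGHT line (left) and the control line (right) over 12 libraries. The neighbours spread on both sides of 0, with medians of 0.02 and 0.03.

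Before differentiation the LIGHT line had somewhat lower levels for part of the genes. Over 12 libraries 1 of 77 genes was higher and 10 were lower in LIGHT than in control cells, with a median log2 fold change of -0.10, against 12.3% higher and 14.2% lower of all genes tested, so that the share lower (13%) was close to that of all genes. Of the 10, 8 were among the 48 large-subunit genes (16.7%) and 2 among the 29 small-subunit genes (6.9%), and over the 10 libraries the lower genes were 14 of 48 (29.2%) and 8 of 29 (27.6%). Without undifferentiated LIGHT library 3, or control library 2 or 3, the count of lower genes was 5, 6 and 5. The count of higher genes was 4 without LIGHT-Diff 1, 3 without NC-Diff 1 or undifferentiated LIGHT library 3, and 0 without undifferentiated library 1 of either line. Over the 10 libraries, which hold the same 6 undifferentiated libraries, 4 were higher and 22 lower with a median of -0.09, against 22.3% higher and 22.1% lower. Mrpl36, a small protein with a bacterial counterpart, had 23.5, 24.4 and 20.7 CPM in LIGHT libraries and 27.8, 32.8 and 37.7 CPM in control libraries. The groups did not overlap, and Mrpl36 was lower in LIGHT cells, with -0.52 ± 0.12 on the log2 scale (SE, adjusted p = 0.00664). Mrpl12, given above, was lower with -0.40 ± 0.10 (adjusted p = 0.00855). Mrps2 was lower with -0.40, Mrpl18 with -0.37 and Mrpl15 with -0.36, all 3 conserved in bacteria. Mrps33, specific to mitochondria, had 57.9, 50.1 and 46.4 CPM in LIGHT libraries and 36.0, 44.2 and 38.9 CPM in control libraries, without overlap, and was higher with 0.37 ± 0.10 (adjusted p = 0.0129). Without undifferentiated LIGHT library 1 or control library 1 Mrps33 had 0.28 and 0.31 and did not pass. Mrpl18 did not pass without LIGHT library 2 or 3 or control library 3 (-0.38, -0.30 and -0.33), nor Mrpl15 without LIGHT library 1 or 3 (-0.35 and -0.32) or any 1 of the control libraries (-0.39 to -0.33). In the 10-library fit Mrpl27, Mrps35 and Mrpl17 were also higher with 0.26, 0.21 and 0.18, and Mrps18b was also lower with -0.41. The summed preadipocyte and fibroblast markers were 16304, 16468 and 17908 CPM in undifferentiated LIGHT libraries, and 11122, 9354 and 10059 CPM in undifferentiated control libraries, without overlap. Pdgfra, Dlk1, Col1a1 and Col1a2 each went with the sum. Pdgfrb overlapped, with 172 to 199 CPM in LIGHT and 169 to 205 CPM in control libraries. Thy1 went the other way, with 228 to 233 CPM in LIGHT and 260 to 276 CPM in control libraries. The part of these markers in the lower mitoribosomal levels was not tested.

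Among the other lists, over 12 libraries, 6 of 30 assembly genes were lower and 0 higher in undifferentiated LIGHT cells, and 7 of 18 genes for mitochondrial DNA maintenance and transcription were lower and 2 higher. Myc, a regulator of ribosome genes, was lower with -0.51 and Pprc1 with -0.43. Of the 81 cytosolic ribosomal proteins 4 were higher and 3 lower, with a median of 0.10, and of the 79 respiratory chain genes 11 were higher and 1 lower, with a median of 0.06, against 12.3% higher and 14.2% lower of all genes tested. In the 10-library fit 9 assembly genes were lower and 1 higher, 7 genes for mitochondrial DNA were lower and 3 higher, 27 cytosolic ribosomal proteins were higher and 7 lower, and 26 respiratory chain genes were higher and 12 lower, against 22.3% higher and 22.1% lower of all genes.

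After differentiation the comparison of LIGHT with control cells turned on the doubted pair. Over all 12 libraries edgeR called 0 of 77 genes higher and 0 lower, with a median log2 fold change of -0.05, and it called 0% higher and 0% lower of all genes tested. At an unadjusted p under 0.05 it called 0 of the 77 genes in either direction, against 246 higher and 277 lower of the 12993 genes tested. DESeq2 called 0 of the 77 genes, against 1 higher and 0 lower over all genes. Over the 10 libraries 1 gene was higher and 32 were lower in LIGHT cells, with a median of -0.18, against 14.6% higher and 16.4% lower of all genes tested. With scaling by library totals 2 were higher and 20 lower, while the calls over all genes were 2864 higher and 1477 lower, against 1922 and 2157 with TMM. The 32 were 19 of 48 large-subunit genes and 13 of 29 small-subunit genes. With LIGHT-Diff 3 or NC-Diff 3 left out as well, where the lone library of its group is assumed to vary like the other groups, 21 and 17 were lower.

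Mrps10 differed most, with the CPM given above: 31.9 and 32.7 in LIGHT-Diff 2 and 3, and 52.7 and 54.8 in NC-Diff 2 and 3, which is -0.74 ± 0.08 on the log2 scale over the 10 libraries (SE, adjusted p = 8.8e-07). Mrps22 had 40.4 and 43.4 CPM in LIGHT-Diff 2 and 3, and 62.4 and 57.6 CPM in NC-Diff 2 and 3, and was lower with -0.53 ± 0.09. Mrps9, of the small subunit's head, had 33.2 and 32.8 CPM in LIGHT-Diff 2 and 3, and 45.1 and 48.9 CPM in NC-Diff 2 and 3, and was lower with -0.52 ± 0.09. In the libraries left out, these genes had 50.7, 54.2 and 43.4 CPM in LIGHT-Diff 1 and 32.0, 43.1 and 37.4 CPM in NC-Diff 1. Mrpl45 and Mrpl30, both of the large subunit, were lower with -0.47 each. Mrps6 alone was higher, with 467 and 448 CPM in LIGHT-Diff 2 and 3, and 361 and 377 CPM in NC-Diff 2 and 3, or 0.30 ± 0.06 (adjusted p = 0.000705). With 2 libraries in each differentiated group, the spread behind these tests came mostly from the undifferentiated groups.

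Other gene lists moved in the same comparison over the 10 libraries, where 14.6% of all genes tested were higher and 16.4% lower. Of the 79 respiratory chain genes 0 were higher and 58 lower, with a median of -0.28, and of the 81 cytosolic ribosomal proteins 0 were higher and 69 lower, with a median of -0.37. Of the 24 translation factors 1 was higher and 10 were lower, among them Lrpprc, which binds mitochondrial messenger RNA, with -0.48, and Tufm with -0.27. Tfam was lower with -0.38, Ppargc1a higher with 0.76 and Ppargc1b lower with -0.58. Nrf1, Gabpa, Esrra and Myc did not pass, with -0.09, -0.11, -0.04 and -0.16 (adjusted p = 0.415, 0.286, 0.814 and 0.0962). The summed adipocyte markers in these libraries were 15343 and 15726 CPM in LIGHT-Diff 2 and 3, and 19904 and 21029 CPM in NC-Diff 2 and 3. Fabp4, the largest of them, had 7096 and 7363 CPM in LIGHT-Diff 2 and 3, and 11092 and 11805 CPM in NC-Diff 2 and 3. Adipoq, Plin1, Lpl and Pparg were also lower in LIGHT without overlap. Cidec overlapped, with 3698 and 3793 CPM in LIGHT-Diff 2 and 3, and 3576 and 3875 CPM in NC-Diff 2 and 3. The summed preadipocyte and fibroblast markers were 14923 and 14425 CPM in LIGHT-Diff 2 and 3, and 10250 and 10683 CPM in NC-Diff 2 and 3. Of these markers only Thy1 went against the sum, with 112 and 106 CPM in LIGHT-Diff 2 and 3, and 120 and 134 CPM in NC-Diff 2 and 3. The part of the adipocyte and preadipocyte markers in the lower mitoribosomal levels was not tested.

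**Figure D5:**
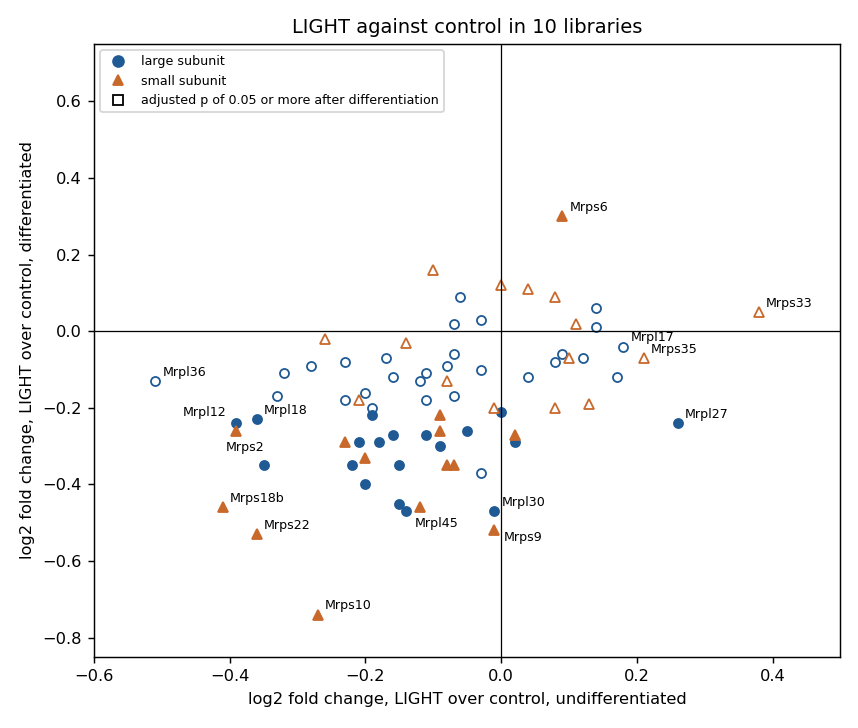
Log2 fold change of LIGHT over control for each gene, undifferentiated (horizontal axis) and differentiated (vertical axis), over the 10 libraries; circles are large-subunit and triangles small-subunit genes, open where the adjusted p after differentiation is 0.05 or more, and some of the genes named in the text have labels. Most points lie below 0 on the vertical axis, where the median is -0.18, and Mrps6 lies above it with 0.30.

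The interaction of line and stage asks whether the rise with differentiation differed between the lines. Over 12 libraries 0 of 77 genes passed in either direction, with a median of 0.05, against 5.08% higher and 4.26% lower of all genes tested. At an unadjusted p under 0.05 edgeR gave 9 of the 77 higher and 1 lower, against 1695 higher and 1550 lower of the 12993 genes tested. DESeq2 called 1 of the 77 higher and 0 lower, against 894 higher and 746 lower over all genes. Without LIGHT-Diff 1 edgeR called 1 lower, and without undifferentiated control library 1 it called 1 higher. Over the 10 libraries 2 had a higher and 12 a lower log2 fold change in the LIGHT line than in the control line, with a median of -0.09, against 14.9% higher and 16.1% lower of all genes tested, so that the members' share of lower genes (15.6%) was close to that of all genes. With scaling by library totals the direction turned, to 7 higher and 4 lower and a median of 0.01. The calls over all genes turned too, from 1964 higher and 2113 lower with TMM to 2771 and 1469. Their median moved from -0.01 to 0.09. Without LIGHT-Diff 2 as well the count of lower genes was 5, without LIGHT-Diff 3, NC-Diff 2, NC-Diff 3 or undifferentiated LIGHT library 1 it was 6, and without undifferentiated control library 1 it was 7. The count of higher genes was 0 without LIGHT-Diff 2, NC-Diff 2, NC-Diff 3 or undifferentiated library 3 of either line, and 1 without LIGHT-Diff 3 or undifferentiated control library 2. The largest were Mrps9 with -0.51 ± 0.12, Mrpl27 with -0.50 ± 0.11 and Mrps10 with -0.48 ± 0.10 (SE). Mrpl36 had 0.37 ± 0.14 and Mrps6 0.21 ± 0.08. For Mrpl36 LIGHT against control was -0.51 before differentiation and -0.13 after it over these libraries (adjusted p = 0.356 after it), and for Mrps6 it was 0.09 before (adjusted p = 0.159) and 0.30 after. Of the cytosolic ribosomal proteins 3 of 81 were higher and 65 lower in this test over the 10 libraries, with a median of -0.50, and of the respiratory chain genes 0 of 79 were higher and 56 lower, with a median of -0.36.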

How the data were processed

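Total RNA was extracted with TRIzol and sequenced on an Illumina HiSeq, per the labels' protocols and the series' design text. The authors deposited 1 table per library with expected counts, estimates that need not be whole, and FPKM, which divides by gene length and library total, per the file headers. The submitters' processing notes name build mm8. The sources used here name no aligner, counting program or strand setting, so reads of a gene and an overlapping or antisense one are not separable.

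Expected counts were rounded and tested with edgeR 4.0.16 (R 4.3.3) in 1 fit of all 12 libraries with a coefficient per group, TMM scaling, filterByExpr (minimum count 10) and the quasi-likelihood test, with Benjamini-Hochberg adjustment over the 12993 genes tested and a threshold of 0.05. The same fit without LIGHT-Diff 1 and NC-Diff 1 tested 13150 genes. CPM are scaled by TMM, and each standard error is the size of the log2 value over the root of its F statistic. Adjusted p-values in the text are edgeR's. DESeq2 1.42.0 was an alternative, and the closing section gives the others. Further alternatives to the 10-library fit (library totals, DESeq2 and single libraries left out) were added after seeing the data. The procedure was tested on simulated data.

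Members were taken by symbol. Genes were named if they were among the 5 largest called changes in a direction without overlap of groups and with at least 5 CPM, among the 3 highest or lowest of a subunit by FPKM, on a list of 22 genes by role, or against the majority of called genes. Other lists gave up to 4 called genes of smallest p and a set of regulators. Genes that passed in 1 line or in neither, neighbours at a promoter or exon, and those with printed promoters were named after their values were seen. Members and lists were chosen with earlier results of these data known. Libraries were grouped by their labels. Same-numbered libraries did not deviate together.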

Additional observations from a re-analysis of the deposited data

Results flagged for a closer look

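For 14 genes the difference between LIGHT and control cells changed with stage, by the test of the interaction over the 10 libraries. The log2 fold change with differentiation was smaller in the LIGHT line for Mrps9 (-0.51), Mrpl27 (-0.50), Mrps10 (-0.48), Mrpl30 (-0.46), Mrpl45 (-0.33), Mrps34 (-0.33), Mrpl24 (-0.31), Mrps14 (-0.29), Mrpl14 (-0.29), Mrps36 (-0.28), Mrps16 (-0.28) and Mrps35 (-0.27), and larger for Mrps6 (0.21) and Mrpl36 (0.37). These are 2.6% higher and 15.6% lower of the 77 genes, against 14.9% higher and 16.1% lower of all genes tested. With library totals the calls over all genes were 2771 higher and 1469 lower. Over all 12 libraries 0 of the 77 genes passed this test. Without 1 further library the lower genes numbered as few as 5 (LIGHT-Diff 2), and with library totals 7 were higher and 4 lower.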

How the results depend on the processing

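The number of genes that rose with differentiation stayed within 1.5 times, with 0 falls, under the alternatives tried: scaling by library totals or DESeq2's size factors, DESeq2 itself, no filter or one of 50 counts in 3 libraries, only the groups of a contrast, and each library left out. Where only 1 library of a group then remained, it is assumed to vary like the other groups; the alternatives over the 10 libraries were chosen after seeing the data. Leaving out each library gave 55 to 66 rises in the LIGHT line and 58 to 66 in the control line, always 0 falls, with medians of 0.51 to 0.60 and 0.51 to 0.63. Over the 10 libraries it gave 57 to 62 and 64 to 69 rises, 0 falls, and medians of 0.49 to 0.56 and 0.59 to 0.64. Library totals moved the control-line median of the genes to 0.43 (0.47 over the 10 libraries), and moved the median of all genes by -0.11 (-0.15).

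The large minus small median was -0.08 in the LIGHT line and 0.02 in the control line without the doubted pair, and 0.02 in both with Mrps30 and Mrps18a in the large subunit and Mrps36 left out. Leaving out each library gave -0.08 to 0.01 and -0.07 to 0.02 for differentiation, 0 to 0.03 after it, -0.05 to -0.03 before it, and 0.03 to 0.08 for the interaction.

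LIGHT against control after differentiation gave 1 higher and 32 lower with a median of -0.18 without the pair, and 0 higher and 0 lower with medians of -0.12 to -0.01 when single libraries were left out. Over the 10 libraries, library totals gave 2 higher and 20 lower, and single libraries left out 1 to 1 higher, 17 to 33 lower and medians of -0.20 to -0.16. Over all genes library totals called 2864 higher and 1477 lower in that contrast, against 1922 and 2157 with TMM, and 2771 and 1469 in the interaction, against 1964 and 2113. In the control line 40.1% of calls were higher with library totals, against 4706 higher and 4586 lower with TMM. Before differentiation the pair left out, or only its groups fitted, gave 4 higher and 22 lower, and the filter of 50 counts 2 higher. Single libraries left out gave 0 to 4 higher, 5 to 13 lower and medians of -0.12 to -0.06, and 3 to 7, 17 to 26 and -0.11 to -0.06 over the 10 libraries.

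For the interaction the pair left out gave 2 higher, 12 lower and a median of -0.09. Library totals gave 2 higher, against 763 higher and 460 lower over all genes, and DESeq2 1 higher, against 894 and 746. Single libraries left out gave 0 to 1 in each direction and medians of -0.04 to 0.11. Over the 10 libraries, library totals gave 7 higher, 4 lower and 0.01, DESeq2 1 higher, and single libraries left out 0 to 3 higher, 5 to 14 lower and -0.13 to -0.07. The cause of these moves was not tested.

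Mrpl54 changed sign in the LIGHT line without the pair (-0.05), with library totals (-0.01) and without LIGHT-Diff 1 (-0.06), and in the control line without the pair (0.05) and without NC-Diff 1 (0.05). Mrpl2 changed sign in the control line with library totals (-0.09) and without NC-Diff 3 (-0.06). In the control line Mrpl3 passed with DESeq2 (0.17), with the filter of 50 counts (0.16) and without LIGHT-Diff 1, NC-Diff 1 or undifferentiated control library 3 (0.18, 0.20 and 0.21), and Mrps18b without LIGHT-Diff 1 or NC-Diff 1 (0.29 and 0.44). With library totals Mrps18c had 0.19 and did not pass in the LIGHT line.

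The replicate numbers share no stated culture or day, and correlations of same-numbered deviations ran from -0.618 to 0.0973. With the replicate number as a block 58 and 59 genes rose in the LIGHT and control line, and 1 was higher and 8 lower before differentiation, where Mrpl15 did not pass (-0.36).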
